A study of Mus musculus with 16 samples.

Results

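The major urinary protein (Mup) genes and the genes of the growth hormone axis were followed in livers of mice on a Western diet for 8 weeks. The rule took every gene of the deposited table whose symbol is Mup followed by a digit, 18 genes, together with 13 named genes of the growth hormone axis, all of which were measured. This gave 31 of 12618 genes. The libraries fall in 2 groups, 8 labelled as Cyp7a1 CRISPR and 8 labelled as control CRISPR, with the same diet in both. CRISPR edits a chosen gene by cutting its DNA, and the enzyme CYP7A1 sets the pace of bile acid production from cholesterol. The labels used here name no strain, age or sex, no guide and no route of delivery. Nor do they tie each library to its own animal, and p-values cover the spread between libraries only.

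Major urinary proteins are small secreted lipocalins that are made mainly by hepatocytes, pass into the urine and carry volatile signals between mice. Their liver transcripts are known to be higher in males and to depend on growth hormone. Growth hormone binds its receptor Ghr, which activates the kinase Jak2 and the transcription factors Stat5a and Stat5b. Stat5b is the form known for the male pattern of liver genes, and Socs2, Cish and Igf1 are among the direct responses.

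Whole-series values bear on these genes as follows. Recovered reads were 23.4 ± 2.41 M per Cyp7a1-labelled library and 21.02 ± 3.48 M per Control library (SD, n = 8 each; M, mega). The Cyp7a1 transcript was not called (limma adjusted p = 0.227). It averaged 4702 ± 1126 normalized counts in Cyp7a1-labelled libraries, against 3587 ± 1252 in Control libraries (SD, n = 8 each). A transcript level cannot show whether the gene was edited, so the groups are named by their labels only. The summed hepatocyte markers, 11 of 12 measured, were 1.08 times the Control mean. Eif2s3y, a gene of the Y chromosome, lay between 882 and 1038 normalized counts in Cyp7a1-labelled libraries and between 805 and 1025 in Control libraries. Kdm5d, another, lay between 130.0 and 291 in Cyp7a1-labelled and between 212 and 275 in Control libraries, and Uty between 76.8 and 118 in Cyp7a1-labelled and between 70.7 and 113 in Control libraries, so all 16 libraries carried Y-linked transcripts. Across all genes tested, 6.12% were called at an adjusted p below 0.05 by limma with Benjamini-Hochberg adjustment, 3.07% higher and 3.05% lower.

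The 18 Mup genes lie in 1 cluster on chromosome 4, from 59964294 to 62150863 on GRCm38 (mm10), a span of 2.19 Mb in the GENCODE annotation. Of these, 17 are on the minus strand and 1, Mup6, is on the plus strand. The annotation holds 22 Mup genes, and the other 4 were not analysed here. Their coding sequences separate the family by likeness. In 13 genes the coding sequence was at least 98% identical to that of another measured Mup gene, and these are called near-identical here. They do not all match each other. Mup1, Mup7, Mup8, Mup9 and Mup13 have coding sequences of 705 bases, and the rest of the 13 have 540 to 543. Identity between these 2 lengths was 75.4% to 76.3%, with gaps counted as differences. In the 5 others, Mup3, Mup5, Mup6, Mup20 and Mup21, called divergent, the closest relative was 90.3% to 94.9% identical. Some divergent genes are closer to Mup2 than Mup1 is: Mup20 was 90.8% identical to Mup2, and Mup1 was 76.2%. This bears on the counting, since reads that fit several copies cannot be placed. Among 50-base windows of the exons, 0% of Mup15 and 38.4% of Mup1 were unique, the lowest and highest of the near-identical genes. In the divergent genes 49.5% (Mup20) to 96% (Mup6) of the windows were unique. Values of single near-identical genes are therefore uncertain, and the authors' handling of reads that map to several places is not stated in the labels.

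The sequence before the start site differs between these kinds as well, and 4 Mup upstream sequences are shown for that reason, from the near-identical Mup17 and Mup2 and the divergent Mup3 and Mup21. Each line gives the 250 bases before the RefSeq start on GRCm38.p6, 5′ to 3′ on the gene's strand, with TATATAA in capitals.
Mup17 (chr4:61595833-61596082, minus strand): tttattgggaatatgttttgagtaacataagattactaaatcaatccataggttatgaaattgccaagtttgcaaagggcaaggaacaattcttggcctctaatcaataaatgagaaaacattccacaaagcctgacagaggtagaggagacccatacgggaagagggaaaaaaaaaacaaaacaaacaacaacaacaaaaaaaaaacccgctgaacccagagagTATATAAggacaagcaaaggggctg
Mup2 (chr4:60139857-60140106, minus strand): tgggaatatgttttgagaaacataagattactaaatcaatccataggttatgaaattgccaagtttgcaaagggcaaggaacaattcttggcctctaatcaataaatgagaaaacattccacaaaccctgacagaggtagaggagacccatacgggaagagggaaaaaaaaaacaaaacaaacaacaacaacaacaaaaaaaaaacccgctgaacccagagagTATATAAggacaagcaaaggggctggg
Mup3 (chr4:62087318-62087567, minus strand): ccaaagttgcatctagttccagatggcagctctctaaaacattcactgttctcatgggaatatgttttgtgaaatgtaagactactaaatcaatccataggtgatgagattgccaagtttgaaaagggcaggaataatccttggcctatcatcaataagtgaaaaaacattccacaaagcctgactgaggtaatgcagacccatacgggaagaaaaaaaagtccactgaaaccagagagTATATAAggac
Mup21 (chr4:62150842-62151091, minus strand): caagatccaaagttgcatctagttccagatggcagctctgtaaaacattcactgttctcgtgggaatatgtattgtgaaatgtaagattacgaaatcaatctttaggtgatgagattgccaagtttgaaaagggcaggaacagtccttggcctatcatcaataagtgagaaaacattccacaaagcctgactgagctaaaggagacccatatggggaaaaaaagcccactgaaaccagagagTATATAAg

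Over the aligned bases the Mup17 and Mup2 sequences were 98% identical, and those of Mup3 and Mup21 were 92.7% identical. Mup3 and Mup17 shared 74.6%. RefSeq start sites were on hand for 11 of the 18 Mup genes, and 8 of these 11 held TATATAA on either strand within 250 bases, against 3.04% of 32851 mouse promoters. Many of these windows are near copies, as with 97.2% identity between Mup2 and Mup9, so the 11 are not independent of each other. Mup7, Mup11 and Mup14 had no match. Their windows end before, or in Mup11 within, the stretch that reads TATATAA in Mup17. Whether the motif follows their RefSeq starts was not looked at. The motif begins 25 bases before the RefSeq start in Mup17, 27 in Mup2, 11 in Mup3 and 8 in Mup21. The RefSeq starts of Mup3 and Mup21 therefore lie closer to it. This spacing depends on the annotation. In GENCODE, Mup17, Mup3 and Mup21 start at 61595871, 62087342 and 62150863, upstream of their RefSeq starts and of the motif.

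STAT5 proteins bind the palindrome TTCNNNGAA, which reads the same on both strands. It was in 0 of the 11 Mup windows, which are not independent of each other, against 7.02% of all promoters. The 12 axis genes with an entry have 19 windows, and 4 of these held it, from 2 genes, Bcl6 and Igfals. The lack of a match says only that these letters are not in this window. For each of the 2 genes 1 start site is shown, with the palindromes in capitals.
Bcl6 (chr16:23981284-23981533, minus strand): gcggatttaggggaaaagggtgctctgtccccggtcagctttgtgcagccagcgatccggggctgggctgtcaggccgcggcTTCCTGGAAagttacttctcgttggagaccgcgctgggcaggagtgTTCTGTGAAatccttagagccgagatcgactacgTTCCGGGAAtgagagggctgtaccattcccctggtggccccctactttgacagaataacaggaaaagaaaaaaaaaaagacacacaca
Igfals (chr17:24877981-24878230, plus strand): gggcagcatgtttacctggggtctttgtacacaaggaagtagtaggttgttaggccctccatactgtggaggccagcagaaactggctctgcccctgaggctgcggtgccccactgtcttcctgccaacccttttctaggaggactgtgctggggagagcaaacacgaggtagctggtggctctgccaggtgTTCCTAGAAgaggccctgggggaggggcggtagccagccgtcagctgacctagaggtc

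The Bcl6 window holds 3 palindromes, beginning 168, 122 and 88 bases before the start, and the Igfals window holds 1, beginning 58 bases before it.

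The Mup genes spanned a wide range of levels. Per kilobase of exon, Mup3 was the most abundant, with 41291 ± 13873 normalized counts per kb in Cyp7a1-labelled libraries and 85237 ± 34097 in Control libraries (SD, n = 8 each). Mup20, which encodes darcin, a male pheromone protein, followed with 17186 ± 4277 per kb in Cyp7a1-labelled and 18290 ± 4365 in Control libraries. On the same scale Mup7 had 6635 ± 5446 per kb in Cyp7a1-labelled and 9805 ± 10014 in Control libraries. Mup17 had 1951 ± 1325 per kb in Cyp7a1-labelled and 8306 ± 4704 in Control libraries, so in Control libraries it stood next to Mup7, from which it differed by less than the spread of either gene. Mup11 had 1868 ± 1182 per kb in Cyp7a1-labelled and 3219 ± 2304 in Control libraries. Mup21 had 2152 ± 550.4 per kb in Cyp7a1-labelled libraries and 2084 ± 853 in Control libraries, within the spread of Mup11 in both groups. The other 12 genes were below 500 normalized counts per kb in both groups, with Mup8 the lowest in Control libraries at 21.7 ± 18.8 per kb. None of the 31 genes was at 0 in any library, and the fewest recovered reads behind a value were 3, for Mup8.

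**Figure D1:**
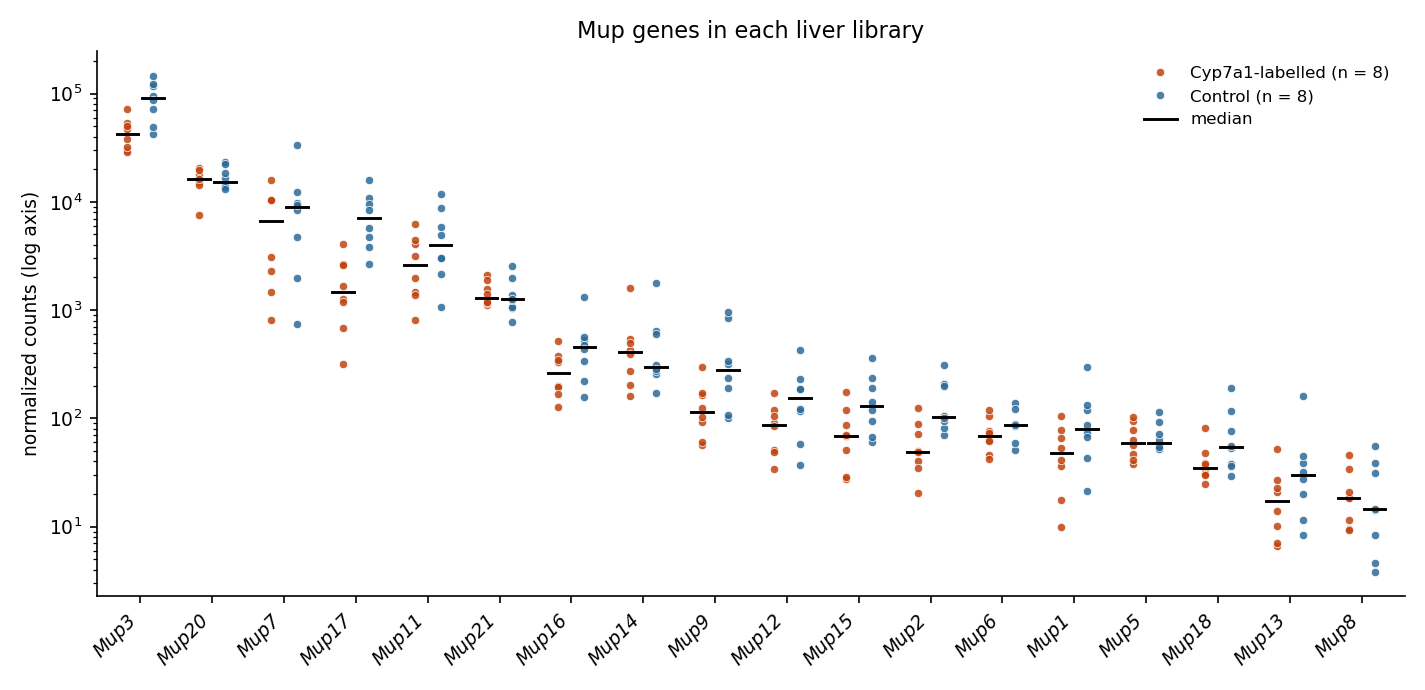
Each point is the level of a Mup gene in 1 library, in normalized counts on a log axis, with Cyp7a1-labelled libraries left of Control libraries and a bar at each median. Genes run from the highest to the lowest Control median. Mup17 reaches 4043 in Cyp7a1-labelled libraries and starts at 2681 in Control libraries, while the groups lie over each other for Mup20 and Mup21.

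The genes were proposed after Mup17 and Mup2 had been seen among the largest falls of the same comparison, so the differences between the groups given here describe the family and are not a test of it. Mup17 was the Mup gene with the largest difference. It had 319, 1476 and 4043 normalized counts (lowest, median and highest) in Cyp7a1-labelled libraries, against 2681, 7067 and 15808 in Control libraries. In 7 of 8 Cyp7a1-labelled libraries it lay below the lowest Control library, and only Cyp7a1 5 reached into the Control range. The log2 fold change was −2.24 ± 0.46 (SE), with a 95% interval from −3.20 to −1.27, which is 0.212 times the Control level. Leaving out any 1 library gave log2 fold changes between −2.45 and −1.93.

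Mup3 had 28852, 42699.6 and 72229 normalized counts in Cyp7a1-labelled libraries, against 41967, 90382 and 146544 in Control libraries. The groups overlapped: 4 Cyp7a1-labelled libraries lay below the lowest Control library, Control 7, and 5 Control libraries lay above the highest Cyp7a1-labelled one. Its log2 fold change was −0.998 ± 0.25 (SE; 95% interval −1.53 to −0.47). Of its 50-base windows 86.7% were unique to it. Mup2, a low-level near-identical gene, had 20.4, 49.1 and 126 normalized counts in Cyp7a1-labelled libraries, against 70.7, 103 and 313 in Control libraries. Of the Cyp7a1-labelled libraries 5 lay below the lowest Control, and the log2 fold change was −1.28 ± 0.35 (SE; 95% interval −2.02 to −0.54).

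These 3 were the Mup genes called lower, 3 of 18 beside 3.05% of all genes, and 0 were called higher beside 3.07%. At an unadjusted limma p below 0.05 the counts were 5 lower and 0 higher, beside 10.4% and 10.1% of all genes, and 0 were called higher by edgeR or DESeq2. Nothing is read from these counts, since the genes were chosen on this comparison. Mup17 kept its call without any 1 library. The adjusted p of Mup3 in the limma fit over all genes was 0.0264, and it was 0.0501 without Cyp7a1 2, 0.0511 without Control 16 and 0.0522 without Control 25. That of Mup2 was 0.0397, and it lay between 0.0515 and 0.0754 when any one of 11 libraries was left out. Mup2 kept its call without any one of the other 5 and with edgeR and DESeq2, and its log2 fold change lay between −1.46 and −1.09 whichever library was left out.

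Of the 18 log2 fold changes 16 were below 0, with a median of −0.72, where the median over all genes tested was 0.0034. The near-identical genes had 12 of 13 below 0 and a median of −0.77, from −2.24 (Mup17) to 0.26 (Mup8). Since each of these genes has a coding sequence at least 98% identical to that of another, they are not independent of each other. Mup9 stood at −1.28 ± 0.45, Mup15 at −1.01 ± 0.40 and Mup1 at −0.97 ± 0.49 (log2, SE), and none of them was called. Mup9 had 56.7, 114 and 299 normalized counts in Cyp7a1-labelled libraries, against 100.7, 278 and 959 in Control libraries, with 3 Cyp7a1-labelled libraries below the lowest Control. Mup13, Mup12, Mup11, Mup16 and Mup18 lay between −0.81 and −0.69, each with an interval that included 0.

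Mup7, the most abundant near-identical gene, differed far more between libraries than between groups. It had 818, 6714 and 15996 normalized counts in Cyp7a1-labelled libraries, against 743, 8872 and 33719 in Control libraries. The highest library was 19.5 times the lowest among Cyp7a1-labelled libraries and 45.4 times among Control libraries. Its log2 fold change of −0.48 ± 0.73 (SE) had an interval from −2.01 to 1.05. Mup14 stood at −0.02 ± 0.46 and Mup8 at 0.26 ± 0.49 (log2, SE), and the intervals, −0.99 to 0.96 for Mup14 and −0.77 to 1.29 for Mup8, were wide.

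The divergent genes other than Mup3 were near 0. Mup20 had 7623, 16249 and 20469 normalized counts in Cyp7a1-labelled libraries, against 13109, 15352 and 23538 in Control libraries. The groups overlapped almost wholly apart from Cyp7a1 36, the library at 7623. The log2 fold change of Mup20 was −0.11 ± 0.18 (SE), with an interval from −0.48 to 0.26, and it was 0.04 without Cyp7a1 36. Mup21, the closest relative of Mup3, had 1123, 1306 and 2115 normalized counts in Cyp7a1-labelled libraries, against 772, 1256 and 2561 in Control libraries. Its log2 fold change was 0.10 ± 0.20 (SE; 95% interval −0.33 to 0.53) and turned to −0.01 without Control 7. Mup6 stood at −0.31 ± 0.23 and Mup5 at −0.12 ± 0.22 (log2, SE), both with intervals that included 0.

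The 18 genes were also summed, which does not depend on how counted reads were divided among these 18. Reads given to a Mup copy outside the 18, or not counted because they match several copies, would be missing from the sum. The sum was 48256, 72064 and 120078 normalized counts in Cyp7a1-labelled libraries, against 64466, 129437 and 230504 in Control libraries. All 8 Cyp7a1-labelled libraries lay below the Control mean and 4 below the lowest Control library. The means were 74539 ± 25592 in Cyp7a1-labelled and 134629 ± 51367 in Control libraries (SD, n = 8 each), a ratio of 0.554 or −0.85 on the log2 scale. As a share of all normalized counts the sum was 0.357 ± 0.112% in Cyp7a1-labelled and 0.645 ± 0.219% in Control libraries. No p is given for a sum over genes chosen with results known. In bulk liver, fewer cells of a type and less RNA per cell cannot be told apart.

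Sums over fewer genes were lower as well. Without Mup3 the sum was 30440.4 ± 11921 in Cyp7a1-labelled and 43596 ± 19574 in Control libraries, a log2 ratio of −0.52. Over the near-identical genes alone it was 12896 ± 9407 in Cyp7a1-labelled and 25053 ± 19495 in Control libraries, a log2 ratio of −0.96. Leaving out any 1 library gave log2 ratios between −0.98 and −0.70 for the whole sum, and leaving out Control 20 and Cyp7a1 24, its highest and lowest libraries, gave −0.63. Without Control 20 the log2 ratio was −0.31 for the sum without Mup3 and −0.56 over the near-identical genes, a smaller difference by more than 1.5 times in both. The pair of libraries was chosen with earlier results known. Adding the 4 Mup pseudogenes of the table left the log2 ratio at −0.85.

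**Figure D2:**
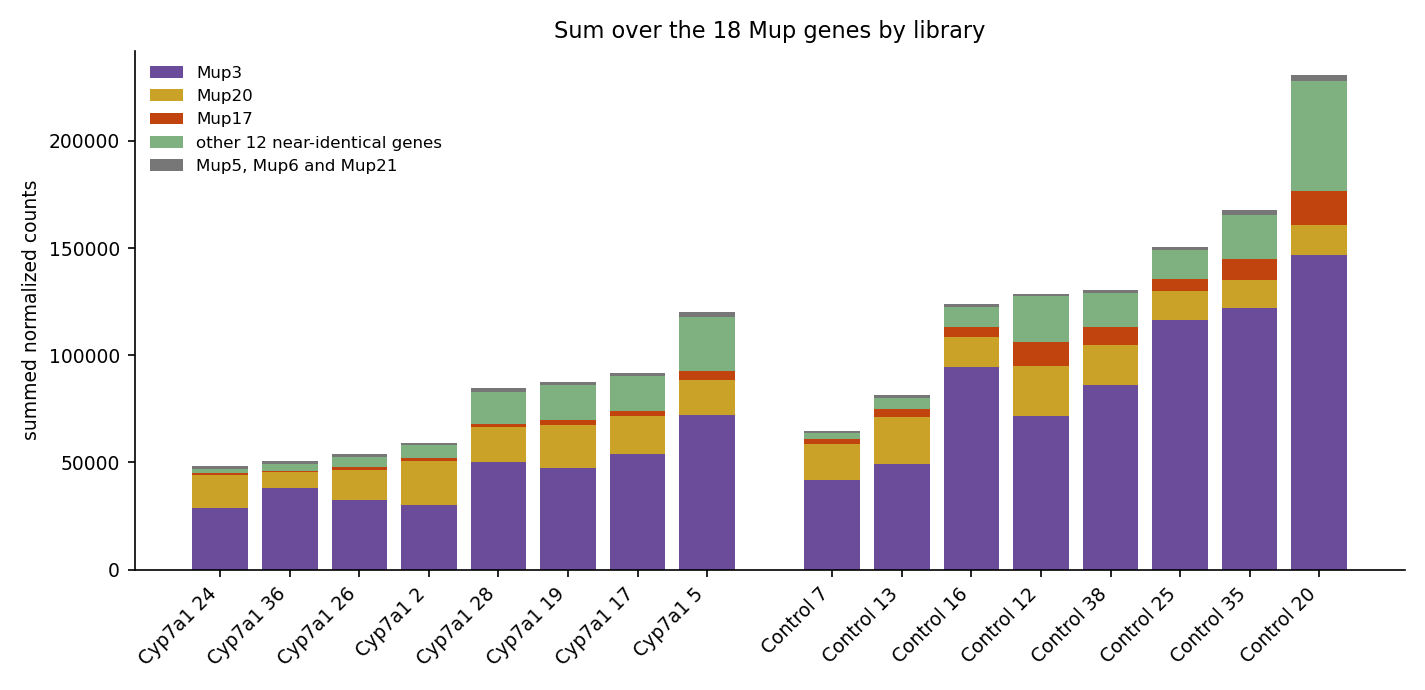
Each bar is the summed normalized count of the 18 Mup genes in 1 library, stacked by gene or group of genes, with the 8 Cyp7a1-labelled libraries on the left and the 8 Control libraries on the right, each ordered by sum. The sums run from 48256 to 120078 in Cyp7a1-labelled and from 64466 to 230504 in Control libraries, and Mup17 makes up at most 3.37% of a bar on the left and at least 3.80% on the right.

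The make-up of the sum also differed. Mup3 made up 59.7 ± 6.98% of it in Cyp7a1-labelled and 67.2 ± 7.73% in Control libraries, and Mup20 made up 22.8 ± 7.61% in Cyp7a1-labelled and 15 ± 8.04% in Control libraries (SD, n = 8 each). Both shares overlapped between the groups. Mup17 made up 0.631% to 3.37% of the sum in Cyp7a1-labelled libraries, against 3.80% to 8.52% in Control libraries. These shares did not overlap, whereas the Mup17 counts did. For reference, 1.04% of all genes had counts that did not overlap between the groups, and none of the 31 genes was among them. Within the near-identical genes, Mup17 took 15.3 ± 5.15% in Cyp7a1-labelled and 35.4 ± 8.65% in Control libraries (SD, n = 8 each), and 7 of 8 Cyp7a1-labelled libraries lay below the lowest Control library. These shares were looked at after the values of Mup17 had been seen.

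The receptor and its signal relay differed little. Ghr, the growth hormone receptor, had 7337, 8415 and 9015 normalized counts in Cyp7a1-labelled libraries, against 7428, 8436 and 11114 in Control libraries. The groups overlapped, the highest library was 1.23 times the lowest among Cyp7a1-labelled libraries and 1.496 times among Control libraries, and the log2 fold change was −0.05 ± 0.07 (SE; 95% interval −0.21 to 0.11). Jak2, the kinase bound to the receptor, stood at −0.09 ± 0.08, and Stat5a, one of the transcription factors it activates, at −0.09 ± 0.09 (log2, SE). Stat5b had 1026, 1210.6 and 1313 normalized counts in Cyp7a1-labelled libraries, against 1202, 1317 and 1471 in Control libraries. All 8 Cyp7a1-labelled libraries lay below the Control mean and 3 below the lowest Control library. The log2 fold change of Stat5b was small, −0.15 ± 0.06 (SE; 95% interval −0.27 to −0.03), and it was not called.

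Cish, Socs2, Bcl6 and Onecut1 varied strongly inside both groups, unlike Igf1, whose highest library was 1.58 times the lowest among Cyp7a1-labelled and 1.699 times among Control libraries. Cish, an induced inhibitor of the relay, had 114, 309 and 775 normalized counts in Cyp7a1-labelled libraries, against 69.1, 185 and 1013 in Control libraries. Cyp7a1 2 and Cyp7a1 36 were high in one group and Control 16 in the other, and the groups overlapped (log2 fold change 0.55 ± 0.53, SE). Socs2, another induced inhibitor, had 138, 205 and 441 in Cyp7a1-labelled libraries, against 112, 178 and 360.1 in Control libraries (log2 fold change 0.21 ± 0.24, SE). Bcl6, a repressor that can occupy STAT5 sites, had 212, 691 and 2626 in Cyp7a1-labelled libraries, against 342, 1159 and 2671 in Control libraries. The highest Bcl6 library was 12.4 times the lowest among Cyp7a1-labelled libraries and 7.81 times among Control libraries, and 3 Cyp7a1-labelled libraries lay below the lowest Control (log2 fold change −0.76 ± 0.53, SE). Onecut1 encodes the liver transcription factor HNF6 and had 55.8, 171 and 268 in Cyp7a1-labelled libraries, against 124, 195 and 552 in Control libraries. Here, too, 3 Cyp7a1-labelled libraries, Cyp7a1 24, 26 and 28, lay below the lowest Control library (log2 fold change −0.67 ± 0.36, SE; 95% interval −1.42 to 0.09).

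**Figure D3:**
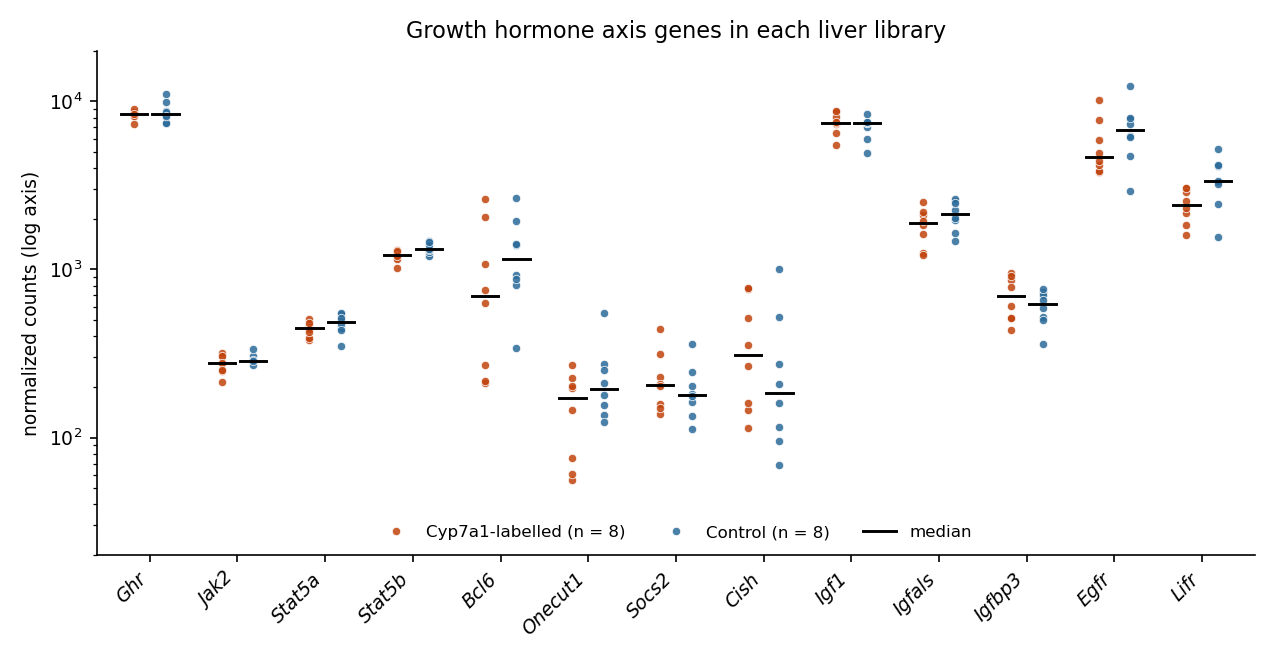
Each point is the level of a growth hormone axis gene in 1 library, in normalized counts on a log axis, with Cyp7a1-labelled libraries left of Control libraries and a bar at each median. Ghr, Jak2, Stat5a and Stat5b are tight in both groups, while Bcl6, Onecut1, Socs2 and Cish spread widely, and no gene has groups that do not overlap.

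Among the secreted products of the axis, all 3 intervals included 0. Igf1, the liver hormone that carries much of the growth signal, had 5530.3, 7471 and 8761 normalized counts in Cyp7a1-labelled libraries, against 4944, 7418 and 8401 in Control libraries. The groups overlapped throughout (log2 fold change 0.09 ± 0.11, SE; 95% interval −0.14 to 0.31). Igfals, the acid-labile subunit that stabilises circulating IGF complexes, stood at −0.22 ± 0.15, and Igfbp3, their main carrier, at 0.19 ± 0.18 (log2, SE).

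The remaining axis genes are surface receptors. Lifr, the receptor of leukemia inhibitory factor, had 1604, 2422 and 3063 normalized counts in Cyp7a1-labelled libraries, against 1559, 3347 and 5208 in Control libraries. Although 6 Control libraries lay above the highest Cyp7a1-labelled one, Control 7 was the lowest of all 16. The log2 fold change of Lifr was −0.45 ± 0.20 (SE; 95% interval −0.87 to −0.03), and its limma adjusted p was 0.212 with all libraries and 0.0334 without Control 7. Egfr, the epidermal growth factor receptor, had 3821, 4674 and 10257 in Cyp7a1-labelled libraries, against 2924, 6785 and 12408 in Control libraries (log2 fold change −0.28 ± 0.25, SE). Its highest libraries were Cyp7a1 5 and Control 20, which were also the highest of their groups for the Mup sum.

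Of the 13 axis genes 0 were called, beside 6.12% of all genes. At an unadjusted limma p below 0.05 the count was 2, Stat5b and Lifr, beside 20.5% of all genes, and with all libraries edgeR and DESeq2 on recovered reads each called 0, beside 6.02% and 8.88% of all genes. Fold changes were above 0 for 4 and below 0 for 9, with a median of −0.09. A gene that was not called is not shown to be equal in both groups, and the intervals of Bcl6, Cish and Onecut1 in particular are wide.

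**Figure D4:**
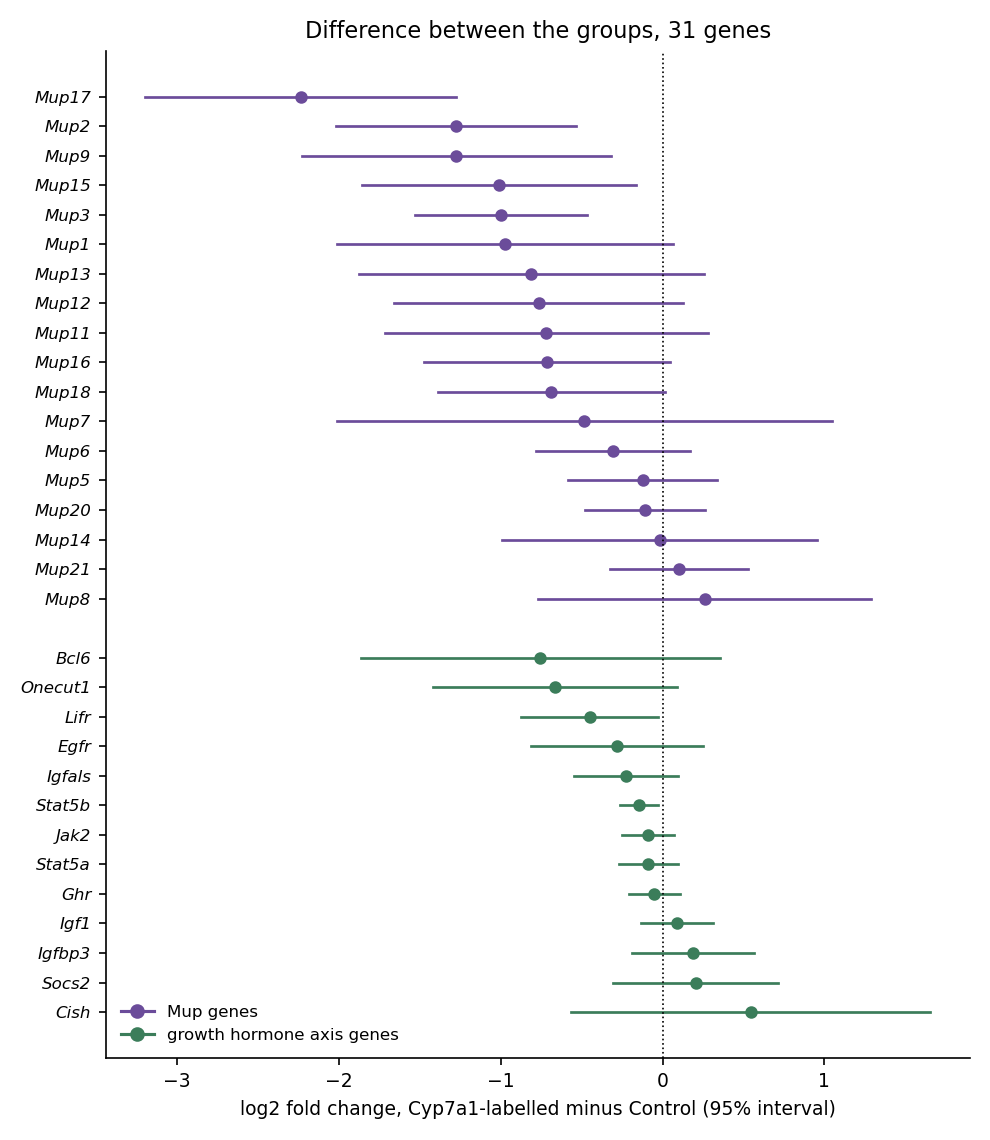
Points are log2 fold changes, Cyp7a1-labelled minus Control, for the 18 Mup genes above and the 13 growth hormone axis genes below, with lines for the 95% intervals of the limma fit. Mup17 lies farthest from 0 at −2.24, and the axis genes reach from −0.76 for Bcl6 to 0.55 for Cish.

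Variation inside the groups does not use the difference between them. Mup3, the most abundant Mup gene, was compared with the 13 axis genes over the 8 libraries of each group, 26 relations in all, on log2 values with two-sided exact permutation tests over 40320 pairings. After Benjamini-Hochberg adjustment 2 of the 26 Pearson correlations passed 0.05, both among Control libraries, and 0 of the Spearman correlations did. For Lifr in Control libraries r was 0.91 (exact permutation p = 0.000942, adjusted p = 0.0245) and rho was 0.905 (exact permutation p = 0.00456, adjusted p = 0.0593). Without the 2 libraries farthest from the Mup3 median r was 0.72. For Ghr in Control libraries r was 0.891 (exact permutation p = 0.00347, adjusted p = 0.0451) and rho was 0.905 (exact permutation p = 0.00456, adjusted p = 0.0593), and without the 2 farthest libraries r was 0.86. Control libraries with more Mup3 had more Lifr and Ghr, with Control 20 at the upper end for all 3 genes. Control 20 also had the highest summed hepatocyte markers, and the part of these markers in the correlations was not tested. These calls depend on single libraries: 0 relations passed without Control 7, 12, 13, 20 or 25, and 1 passed without Control 16 or after scaling to equal totals. With any 1 Control library left out r stayed between 0.868 and 0.954 for Lifr and between 0.863 and 0.939 for Ghr.

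Among Cyp7a1-labelled libraries 0 of 13 relations passed the adjustment, and 2 had an exact permutation p below 0.05 before it. These were Igfals, with r of 0.783 and rho of 0.762 (adjusted exact permutation p = 0.136 and 0.191), and Lifr, with r of 0.728 and rho of 0.762 (adjusted exact permutation p = 0.162 and 0.191). For Ghr r was 0.0781 and rho was 0.333 (adjusted exact permutation p = 0.9 and 0.695). Whether a relation differs between the groups was not tested. For Cish r was −0.385 in Cyp7a1-labelled and 0.179 in Control libraries (adjusted exact permutation p = 0.59 and 0.824).

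The strongly varying response genes were then set against each other. The 12 relations, 6 pairs of Cish, Socs2, Onecut1 and Bcl6 in each group, were chosen after their values had been seen, so they are described without a test. Cish and Onecut1 had r of 0.699 in Cyp7a1-labelled libraries. In Control libraries r was 0.951, rho was 0.952 and r without the 2 libraries farthest from the Cish median was 0.946. Cish and Bcl6 had r of −0.79 in Cyp7a1-labelled libraries and −0.817 in Control libraries. In the single libraries, Control 16 had the most Cish of all 16, 1013 normalized counts, with 552 of Onecut1 and 342 of Bcl6. Control 35 had the least Cish, 69.1, with 124 of Onecut1 and 2671 of Bcl6.

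**Figure D5:**
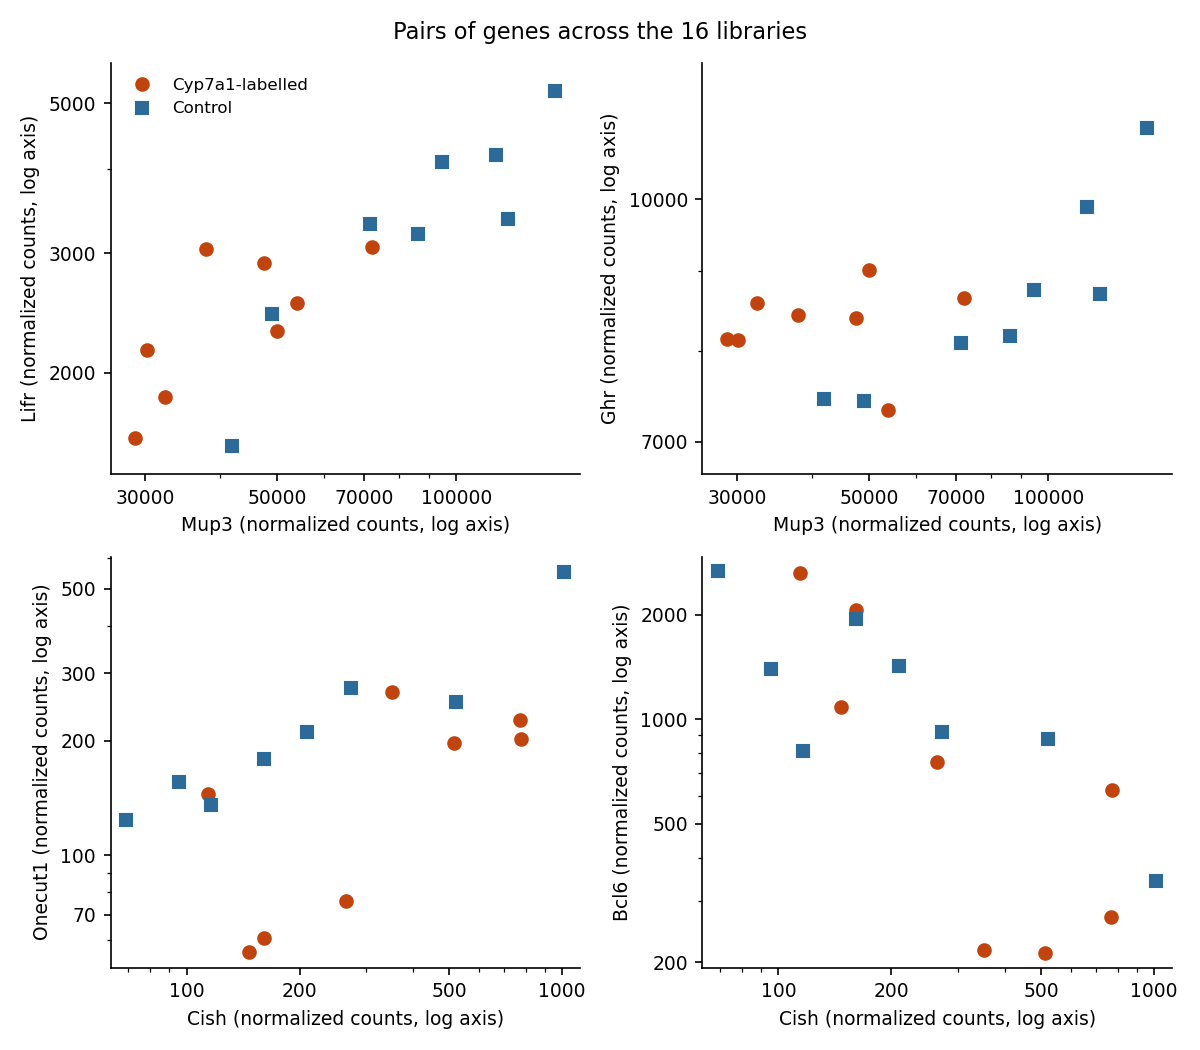
Each point is 1 library, with Cyp7a1-labelled libraries as circles and Control libraries as squares, and both axes of each panel give normalized counts on a log axis. Mup3 is plotted against Lifr and Ghr in the upper panels, and Cish against Onecut1 and Bcl6 in the lower ones. Among Control libraries Lifr and Ghr climb with Mup3 (r 0.91 and 0.891) and Onecut1 climbs with Cish (r 0.951), while Bcl6 is lower where Cish is higher.

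The Mup genes varied together as well. This is given as a description, and the part of shared reads in it was not tested. All 78 pairs among the near-identical genes, within and across the lengths of coding sequence, had a positive correlation in each group. The median r was 0.837 in Cyp7a1-labelled and 0.89 in Control libraries. Mup3 with the near-identical genes had a median r of 0.87 in Cyp7a1-labelled and 0.729 in Control libraries. Mup20 was apart, with a median r of 0.492 in Cyp7a1-labelled and −0.174 in Control libraries.

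Other genes around the axis were taken from lists chosen with earlier results of these data known. Of 14 genes known as higher in male liver, all were measured and 0 were called by limma, beside 6.12% of all genes. At an unadjusted limma p below 0.05 there were 4, beside 20.5% of all genes. On recovered reads edgeR called 0, beside 6.02%, and DESeq2 called 2, Elovl3 higher and Hsd3b5 lower, beside 8.88%. The one with the smallest p, Hsd3b5, a male-specific steroid enzyme, had 21.7, 219.8 and 1250 normalized counts in Cyp7a1-labelled libraries, against 102, 1489 and 3573 in Control libraries. All 8 Cyp7a1-labelled libraries lay below the Control mean, and the log2 fold change was −2.59 ± 0.76 (SE, limma adjusted p = 0.0506). Limma called Hsd3b5 lower without Cyp7a1 5, Control 7 or Control 13. With any 1 library left out its limma adjusted p lay between 0.0124 and 0.0926. Limma also called it with a pseudocount of 8 (adjusted p = 0.0485), a minimum mean of 50 (0.0479) or scaling to equal totals (0.0478). Elovl3, a fatty acid elongase of the same list, stood at 0.42 ± 0.16 (limma adjusted p = 0.124). Of the 14 fold changes 6 were above 0 and 8 below, with a median of −0.18.

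Of 17 genes known as higher in female liver 7 were measured, and limma and edgeR each called 2 of them, both higher, beside 3.07% and 3.02% of all genes. DESeq2 called the same 2 higher, beside 4.34%, and Cyp2b9, a cytochrome P450, lower (log2 fold change −2.56, adjusted p = 0.023), beside 4.54%. The count of Cyp2b9 was highest in Control 7. Cyp17a1, a steroid hydroxylase, had 580.2, 1329 and 2422 normalized counts in Cyp7a1-labelled libraries, against 107, 323 and 644 in Control libraries. It rose by 2.00 ± 0.34 (log2, SE, limma adjusted p = 0.00254), and all 8 Cyp7a1-labelled libraries lay above the Control mean. Abcd2, a peroxisomal transporter of very long-chain fatty acids, rose by 0.92 ± 0.22 (log2, SE, limma adjusted p = 0.0192). The median over the 7 genes was 0.29.

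Within the wider relay, 18 of 19 genes were measured and 1 was called, lower, beside 3.05% of all genes. This was Sh2b2, an adaptor of receptor-linked kinases, which fell to 39 ± 8.59 normalized counts in Cyp7a1-labelled libraries, against 60.6 ± 12.3 in Control libraries (SD, n = 8 each; log2 fold change −0.63 ± 0.15, SE, limma adjusted p = 0.0211). Of 13 further IGF system genes 10 were measured and 1 was called by limma and edgeR, higher, beside 3.07% and 3.02% of all genes. DESeq2 called it too and called Insr, the insulin receptor, higher (log2 fold change 0.18, adjusted p = 0.0399), beside 4.34%. Igfbp1, an IGF-binding protein under insulin control, rose to 2237 ± 908 in Cyp7a1-labelled libraries, against 1056 ± 343 in Control libraries (SD, n = 8 each; log2 fold change 1.07 ± 0.23, SE, limma adjusted p = 0.0126).

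Around Egfr, 8 of 11 genes of the epidermal growth factor family were measured and 2 were called lower, beside 3.05% of all genes. Tgfa, a ligand of Egfr, fell by 0.38 ± 0.09 (log2, SE, limma adjusted p = 0.0233), and the call was lost after scaling to equal totals (limma adjusted p = 0.0723). Lrig1, a negative regulator of Egfr, fell by 0.20 ± 0.05 (log2, SE, limma adjusted p = 0.0263), a call lost without Cyp7a1 28 (0.0516) or Control 25 (0.0507). Of 9 genes of the interleukin-6 family, to which Lifr belongs, 7 were measured. Limma, edgeR and DESeq2 called 0 of them, beside 6.12%, 6.02% and 8.88% of all genes. At an unadjusted limma p below 0.05 there were 2, beside 20.5% of all genes. The one with the smallest p, Il6ra, stood at 0.40 ± 0.15 (log2, SE, limma adjusted p = 0.138), and Ctf1, a ligand of the Lifr complex, at −0.17 ± 0.07 (limma adjusted p = 0.205).

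Of 16 liver transcription factors limma and edgeR each called 1, higher, beside 3.07% and 3.02% of all genes. DESeq2 called it too and called Nr1i3 and Nr3c1, a xenobiotic sensor and the glucocorticoid receptor, lower (log2 fold change −0.34 and −0.22, adjusted p = 0.0446 and 0.0491), beside 4.54%. Foxa3, a forkhead factor of hepatocytes, rose to 962 ± 197 normalized counts in Cyp7a1-labelled libraries, against 659 ± 156 in Control libraries (SD, n = 8 each; log2 fold change 0.55 ± 0.14, SE, limma adjusted p = 0.0285). That call was lost without Cyp7a1 5, 17, 19 or 36 or Control 35 or 38, with limma adjusted p between 0.0512 and 0.0564. Among other lipocalins 7 of 11 were measured and 1 was called, lower, beside 3.05% of all genes. Orm3, an acute-phase lipocalin, fell to 128 ± 26.4 in Cyp7a1-labelled libraries, against 253 ± 80.7 in Control libraries (SD, n = 8 each; log2 fold change −0.92 ± 0.20, SE, limma adjusted p = 0.0106).

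Markers of other liver cells give the frame for these values. Of the 11 hepatocyte, 12 macrophage, 8 endothelial and 9 stellate markers measured, 0 were called in each list by limma, edgeR or DESeq2. Of all genes these tools called 6.12%, 6.02% and 8.88%. At an unadjusted limma p below 0.05 there were 3 endothelial markers and 0 hepatocyte, macrophage or stellate markers, beside 20.5% of all genes. The summed macrophage markers ranged from 8518 to 29841 normalized counts in Cyp7a1-labelled libraries and from 10131 to 18279.6 in Control libraries, the summed endothelial markers from 7962 to 11186 in Cyp7a1-labelled and from 9144 to 11573 in Control libraries, and the summed stellate markers from 8733 to 15167 in Cyp7a1-labelled and from 7147 to 16155 in Control libraries. Of 6 cholangiocyte markers measured 1 was called, Krt23, a keratin, beside 3.05% of all genes called lower. It fell by 2.15 ± 0.31 (log2, SE, limma adjusted p = 0.000655). The summed cholangiocyte markers ranged from 1311 to 3952 in Cyp7a1-labelled and from 1105 to 3837 in Control libraries. Some libraries at or near the ends of the Mup sum were also at the ends of these sums, and others were not. Cyp7a1 24, with the lowest Mup sum of all 16 libraries, had the highest macrophage and cholangiocyte sums, 29841 and 3952, and the highest stellate sum of its group, 15167. Its count of Marco, a scavenger receptor of macrophages, was 3916, against 35.4 to 668 in the other libraries. Control 7 and Control 13, the lowest Mup sums of their group, had stellate sums of 15611 and 16155, the highest of that group, and 2574 and 2678 normalized counts of Col1a1, a collagen. Control 20, with the highest Mup sum, had the lowest stellate and cholangiocyte sums of all 16 libraries, 7147 and 1105, and 155 of Col1a1. The summed hepatocyte markers were the highest of all 16 libraries in Control 20, at 2745800 normalized counts. They were the lowest of their groups in Control 13 (1887860) and Cyp7a1 24 (1897840), and Control 7 (1914910) was next to Control 13. Other libraries did not follow this. Cyp7a1 36, with a low Mup sum of 50591, had a stellate sum of 11969 and a cholangiocyte sum of 1427. Its hepatocyte sum, 2738100, was the highest of its group. Cyp7a1 5, with the highest Mup sum of its group, had stellate and cholangiocyte sums of 10573 and 1819, inside the range of its group. Its hepatocyte sum was 2696790. The part of these markers in the Mup values was not tested.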

How the data were processed

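Messenger RNA was sequenced from 16 mouse liver libraries, 8 per group. What the authors deposited is a normalized count, a signal for each gene in each library. The submitters' processing notes name the build mm10, R 3.6.3, DESeq2, featureCounts, STAR 2.7.11a and Trim Galore 0.6.10, without role or order. The strand setting and the treatment of multi-mapped reads were not given in the sources used here. Each library's values are whole multiples of a step of 0.769 to 1.54, the worth of 1 read, which gave whole reads for 99.94% or more of the values (tolerance 0.05 reads) and 13.8 to 27.4 M reads (M, mega) per library. Of the genes, 1 with a text cell was left out.

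Limma 3.58.1 (lmFit, eBayes with trend, R 4.3.3) was fitted to log2(value + 1) of 12617 genes, two-sided, with Benjamini-Hochberg adjustment and a threshold of 0.05. On that scale a fold change is the Cyp7a1-labelled minus the Control mean, and changes of low genes are understated. A minimum mean of 10 removed no gene. Fits with edgeR 4.0.16 and DESeq2 1.42.0 on recovered reads, quantile normalization, scaling to equal totals, pseudocounts of 0.5 and 8, no filter or a minimum mean of 50, array weights, and leaving out libraries were alternatives. Over all genes edgeR called 381 higher and 379 lower, DESeq2 548 and 573, limma with array weights 485 and 450, and limma after scaling to equal totals 263 and 372. The fits were tested on simulated data.

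The members and all lists were chosen with earlier results of these data known. Named are every member, Cyp7a1, and of each list the up to 4 called genes with the smallest p, or 2 where none was called. The comparison of Cish, Socs2, Onecut1 and Bcl6, the limit of 98% coding identity, the leaving out of libraries from the smaller Mup sums, the look at Y-linked genes and pseudogenes, and the naming of Marco, Col1a1, Cux2 and of genes called only by DESeq2 were chosen after the data were seen. Coordinates and exon lengths come from GENCODE M21 on GRCm38, and upstream sequences from RefSeq on GRCm38.p6. The groups share no replicate numbers, and the labels give no batch, so no block or covariate entered.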

Additional observations from a re-analysis of the deposited data

Results flagged for a closer look

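Among 70 groups of values looked at, each of 8 libraries (31 genes and 4 Mup sums in both groups), 1 library lay far from the others, where chance gives about 3.5. Mup20 had 7623 normalized counts in Cyp7a1 36, against 14289 to 20469 in the other Cyp7a1-labelled libraries. On the log2 scale the gap to the nearest library was 0.636 of the group's range. The same library had the lowest Mup17 of all 16, 319 normalized counts.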

How the results depend on the processing

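The groups share no replicate numbers. No paired analysis was possible because the labels pair no libraries. Leaving out 1 library at a time gave 230 to 399 genes higher and 245 to 414 lower, against 387 and 385 with all libraries (230 and 245 without Cyp7a1 28, and 256 lower without Control 16). It gave 1 to 3 Mup genes called lower, 0 to 1 axis gene called lower (Lifr, without Control 7), and 0 to 2 relations of Mup3 past the threshold. With Control 20 and Cyp7a1 24 both left out, 1 Mup gene was called lower, Mup17. Mup2 lost its call without Cyp7a1 2, 24, 26, 28 or 36 or Control 12, 16, 20, 25, 35 or 38, and with array weights (limma adjusted p = 0.053). DESeq2 called Mup9 as well (adjusted p = 0.0288). Scaling to equal totals left 1 relation of Mup3. Relations of Mup3 fell to 0 without Control 7, 12, 13, 20 or 25 and to 1 without Control 16. The log2 ratio of the Mup sum was −0.85 after scaling to equal totals and −0.87 after quantile normalization.

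Signs turned for 6 genes, none of them called with all libraries. They include Mup7 and Mup8, at −0.48 and 0.26 with all libraries. Without Control 20 and Cyp7a1 24 the log2 fold change was 0.21 for Mup7, 0.42 for Mup14 and 0.0056 for Ghr. Mup8 was −0.050 with edgeR and −0.033 with DESeq2. Mup14 was 0.25 with array weights. Leaving out 1 library at a time gave −0.30 to 0.28 for Mup14, −0.17 to 0.037 (without Cyp7a1 36) for Mup20, −0.0086 (without Control 7) to 0.24 for Mup21 and −0.082 to 0.00089 (without Control 20) for Ghr. The cause was not tested. Depth limits Mup8 and Mup13, which had few reads in some libraries, and shared sequence limits the 13 near-identical genes.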

Other observations

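The values of 2 Control libraries were picked out after they had been seen. Control 7, with 25.4 M recovered reads, had the lowest Mup sum of its group and the lowest value of its group for 11 of the 14 genes known as higher in male liver. Hsd3b5 was at 102 normalized counts in Control 7, against 358 to 3573 in the other Control libraries. It was lower still in Cyp7a1 2, 24 and 26, at 58.6, 21.7 and 76.0. Slco1a1, an organic anion transporter, was at 1496 in Control 7 against 3056 to 7031 in the other Control libraries, and at 1135 in Cyp7a1 24. Cyp7b1, a steroid hydroxylase, was at 822 in Control 7 against 1742 to 3819 in the other Control libraries. Its lowest value in Cyp7a1-labelled libraries was 1122. Cyp2b9, known as higher in female liver, was at 694 in Control 7 and between 4.88 and 75.2 in the other Control libraries. Cux2, of the same list, was at 16.1 in it against 8.37 to 24.1, and 3 of the 7 measured genes known as higher in female liver had their highest Control value in Control 7. Igf1 was at 4944 in it against 6001 to 8401. Control 20, with the highest Mup sum of all 16 libraries, had the highest Hsd3b5, Slco1a1 and Cyp7b1 of its group, the upper values given above. No test was made on these libraries.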
